A study of Danio rerio with 8 samples.

Results

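Respiratory complexes II to V were followed through their nuclear genes. The members are the entries of the spliced count table whose lower-case symbol starts with sdha to sdhd, uqcr, cycs, cox and a digit, or atp5, or equals cyc1. The rule finds 54 of 21234 genes and uses names alone, no measured value. It gathers 4 subunits of complex II and 2 of its assembly factors, 7 subunits of complex III, 1 cytochrome c gene, 14 subunits of complex IV and 9 of its assembly factors, 3 subunits of the F1 part of ATP synthase, 12 of its Fo part and stalk, and 2 inhibitor genes.

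Polyadenylated RNA was sequenced from cells of dissociated adult zebrafish ventricles, labelled cardiomyocytes, in 4 control libraries and 4 libraries with Hmga1a overexpression. Hmga1a binds AT-rich DNA in chromatin, and the hearts are described as uninjured. Both groups carried cmlc2:dsred, a red fluorescent reporter under a promoter of cardiomyocytes, and both are labelled 14 days after tamoxifen. The promoter that drives the overexpression, the way tamoxifen acts on it, the number of fish behind a library and any sorting of cells are not stated in the labels. The labels do not say that the libraries came from separate fish, and the p-values rest on the variation among libraries, which may be technical.

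As background, the respiratory chain of the inner mitochondrial membrane passes electrons to oxygen. Complex II takes them from succinate and hands them to ubiquinone, complex III moves them from ubiquinol to cytochrome c, and complex IV moves them from cytochrome c to oxygen. ATP synthase, or complex V, lets the protons that the chain has pumped flow back and makes ATP from ADP. Complex II is built from nuclear genes alone, while the others combine nuclear subunits with a few encoded by the mitochondrial genome. Heart muscle makes most of its ATP in this way. Some subunits exist as paralogs: in mammals COX7A1 is the form of heart and skeletal muscle, and COX4I2 is induced by low oxygen.

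Nearly all members that could be tested were higher with Hmga1a overexpression. Of the 54 members, 41 passed the filter on low counts, and 40 of these were higher and 0 lower (quasi-likelihood test of edgeR, with p adjusted by Benjamini-Hochberg over all 2501 genes tested and a threshold of 0.05). Over all genes tested, 30.4% were called higher and 29.2% lower. The remaining member, cox4i2, did not pass. The filter asked for at least 4 libraries above a minimum. In 35 members the 4 controls alone met it, and these 35 were all higher. The other 6, sdhb, sdhaf4, cox10, cox16, cox20 and cox4i2, met it only with overexpression libraries counted in, so the calls of the first 5 were favoured by the filter and the count over tested members is a description. The median log2 fold change of the 41 members was 1.56, beside 0.01 over all genes tested, with a range from 0.26 for cox4i2 to 2.37 for cox5ab. In 37 members the change was at least 2-fold, in 6 at least 4-fold, and in 26 the 95% interval of the change lay above 2-fold. Over all genes tested, 22.0% were called higher with a change of at least 2-fold. For the 6 and the 26 no share over all genes tested was taken. The 37 include the 5 members whose calls the filter favoured, the 6 include cox16 and the 26 include sdhb. In 36 of the 41 every overexpression library lay above every control, which held for 25.7% of all genes tested. The 36 include sdhb, sdhaf4, cox10 and cox16, whose calls the filter favoured. Levels below are counts scaled by TMM to a common library size (CPM), changes are log2 fold changes with their SE, and every adjusted p is from edgeR over all genes tested. Values of single libraries are in the order of their numbers, 1 to 4.

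**Figure D1:**
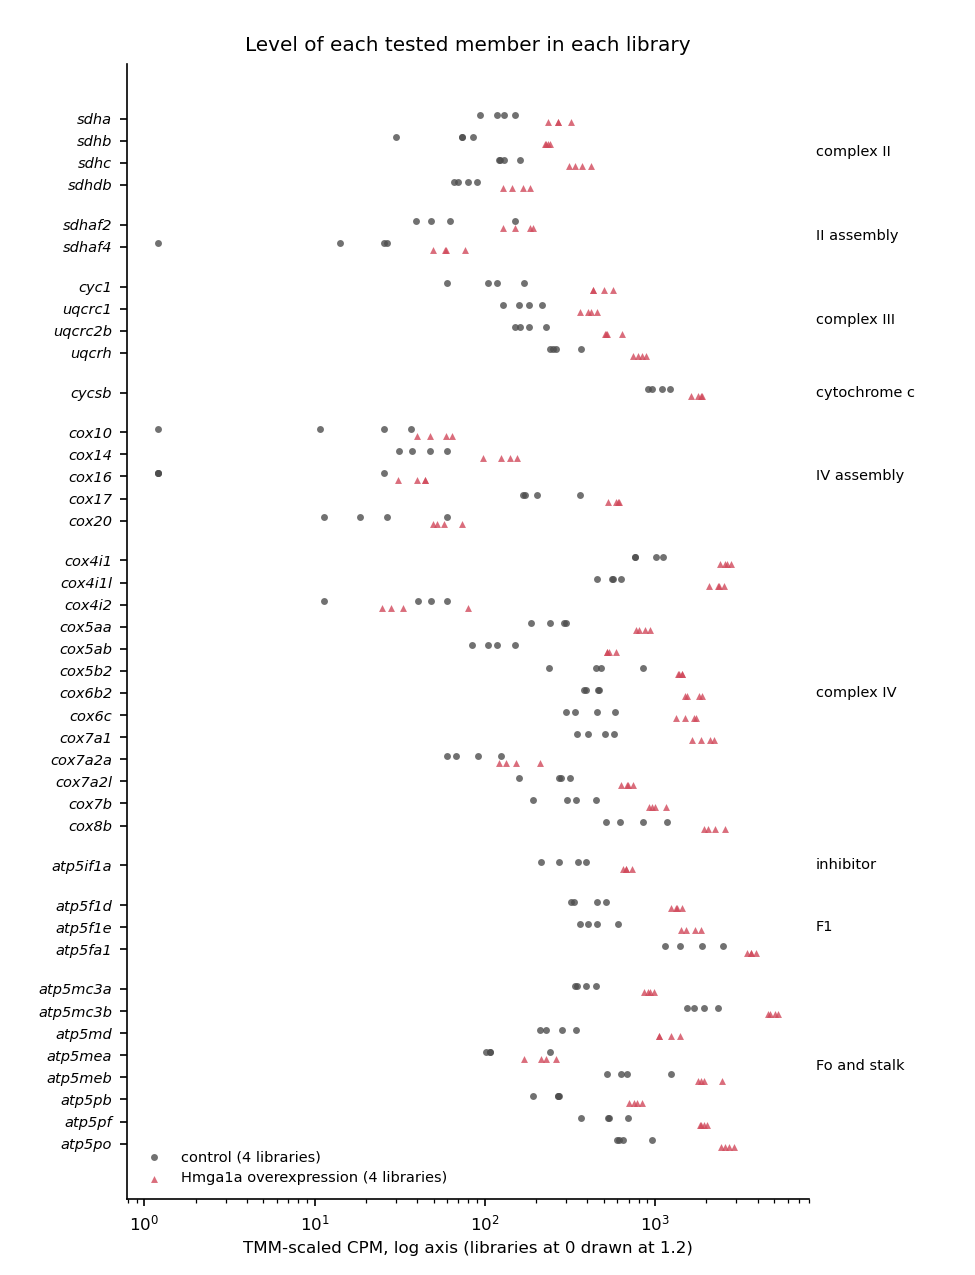
Level of each of the 41 tested members in each library, in TMM-scaled CPM on a log axis, with circles for the 4 controls and triangles for the 4 overexpression libraries; libraries at 0 are drawn at 1.2. The groups are apart in 36 members and overlap in sdhaf2, cox20, cox4i2, cox7a2a and atp5mea.

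The target transcript itself, hmga1a, was at 127, 30.2, 75.01 and 58.9 CPM in controls and at 80.7, 133, 129 and 131 CPM with overexpression, so that the groups overlapped, and its change of 0.47 ± 0.30 did not pass (adjusted p = 0.177, edgeR). Groups are therefore named by their labels. The reporter transcript dsRED was at 631, 543, 595 and 567 CPM in controls and 2522, 3632, 3769.9 and 2274 CPM with overexpression, without overlap (2.36 ± 0.17, adjusted p = 2.1e-12). The libraries differed in depth and in makeup. Total corrected counts ran from 49598 to 352807 in controls and from 302157 to 572295 with overexpression, and control 2 was the shallowest. Without it 41 of 43 tested members were higher and 0 lower, beside 861 higher and 852 lower of all 2828 genes tested there. RNA of the mitochondrial genome took 44.9% to 67.7% of counts in controls and 28.1% to 35.1% with overexpression. The cardiomyocyte genes tnnt2a, tnnc1a and actc1a were high in all 8 libraries, while myl7, the gene of the cmlc2 promoter, is listed at 1 count in 1 control and 0 elsewhere. Of 20 tested contractile genes 13 were higher and 3 lower, with a median of 1.26. The 3 lower ones were ttn.1 (-1.77), ttn.2 (-2.01) and myh6 (-4.0). The summed level of the list was 19506 to 30803 CPM in controls and 43362 to 53719 CPM with overexpression. Of 21 endothelial markers listed, 6 were tested and all 6 were lower (summed level of the list 453 to 911 CPM in controls and 126 to 203 CPM with overexpression). None of the 6 met the filter on overexpression libraries alone, so these calls were favoured by the filter. Of 14 fibroblast and epicardial markers listed, 5 were tested and all 5 were lower (3793 to 5017 CPM against 1182 to 1451 CPM). These 5 were col1a1b, fn1b and the keratin genes krt4, krt8 and krt18a.1, while the defining markers pdgfra, tcf21 and tbx18 were not tested. The keratin gene krt8 alone was at 1720 to 2534 CPM in controls. Of 17 leukocyte markers listed, 5 were tested and all 5 were lower (3832 to 7792 CPM against 1599 to 2121 CPM). There cd74a alone was at 2685 to 4757 CPM in controls, and mpeg1.1 met the filter only with controls counted in. The 1 tested erythrocyte gene of 8 listed, cahz, was higher (1.43 ± 0.42, adjusted p = 0.00461). It met the filter only with overexpression libraries counted in, so its call was favoured by the filter. The summed level of its list was 25.5 to 75.01 CPM in controls and 46.5 to 227 CPM with overexpression. Of the defining markers of these cells, cdh5, tbx18, coro1a, hbba1 and alas2 are listed at 0 in every library. The part of these shifts, and that of the reporter, in the members' changes was not tested, and in bulk samples fewer cells of a type and less RNA per cell cannot be told apart.

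A measure that needs no scaling between libraries is the members' summed count set against other counts of the same library. The 54 members held 2.23%, 4.01%, 2.54% and 2.95% of the counts outside the mitochondrial genome in controls, in order of library number, and 7.19%, 6.93%, 7.45% and 7.56% with overexpression. The groups did not overlap, and control 2 was the highest control. For every 100 counts of the contractile list, the members had 62.98, 62.8, 62.5 and 68.3 counts in controls and 95.2, 97.1, 88.9 and 105 with overexpression. Here too the groups did not overlap, and the controls, control 2 included, lay close together. The means were 64.2 ± 2.77 and 96.7 ± 6.82 (SD, n = 4). No test was made of these sums, since the members and the contractile list were chosen with earlier results of these data known. The contractile list is not a fixed reference, since its genes ttn.1, ttn.2 and myh6 fell while 13 of its tested genes rose. In control 1 these 3 genes had 460, 873 and 137 of the 6891 counts of the list. In overexpression library 1 they had 126, 243 and 4 of 19734 counts. In control 2 these 3 genes had 20, 56 and 4 of 1022 counts, a smaller part of the list than in control 1. The closeness of the controls was thus seen only with a list that holds these genes. Leaving them out would narrow the gap between the groups, but by how much was not computed.

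**Figure D2:**
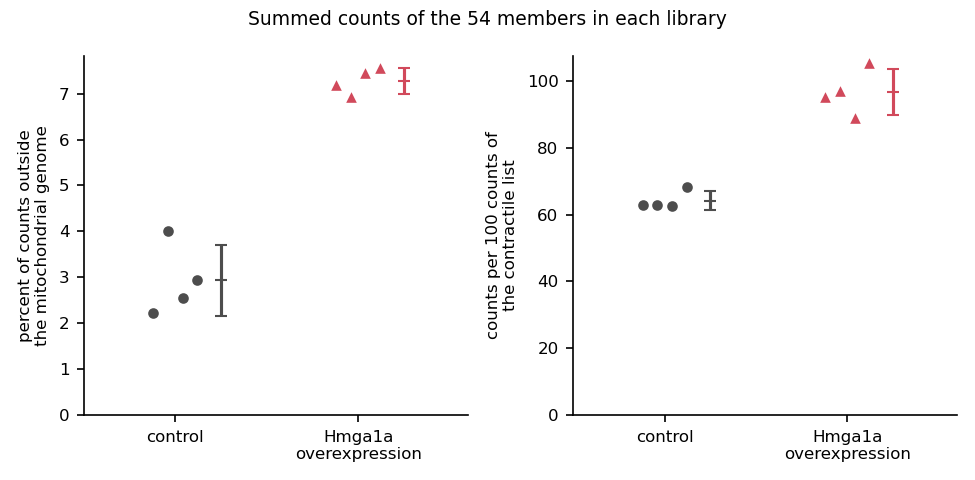
Summed counts of the 54 members in each library, as a percent of counts outside the mitochondrial genome (left) and per 100 counts of the contractile list (right); points are libraries, bars the mean and SD (n = 4). Controls lie between 62.5 and 68.3 and overexpression libraries between 88.9 and 105 counts per 100 contractile counts.

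The size of the changes depends on the reference. With libraries scaled on the summed contractile counts, the 3 falling genes included, the median of all genes tested moved to -1.13. Of these genes 58.6% were called lower and 5.04% higher. Of the 40 members tested under that scaling, 21 were higher and 0 lower, with a median of 0.54. They were 10 of 13 subunits of complex IV, 8 of 11 subunits of ATP synthase, 2 of 4 of complex III, cox17, and none of complex II. The 3 falling genes make this reference rise less, so leaving them out would lower these changes by an amount not computed here. Calls near the threshold, such as those of uqcrc2b and cox17 (adjusted p = 0.0449 and 0.0377, edgeR), might then be lost. Scaling to library totals alone gave a median of 1.96 and the same count of 40 higher, with the median of all genes at 0.38 and 38.5% of them called higher. Changes were also smaller for abundant members with a minimum count of 30 and with libraries thinned to the smallest one. There cox4i1 stood at 1.13 and 0.90 and atp5po at 1.58 and 1.53, beside 1.56 and 2.01 in the main comparison. Below, members that lose their call when scaled on contractile genes are named with both values.

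**Figure D3:**
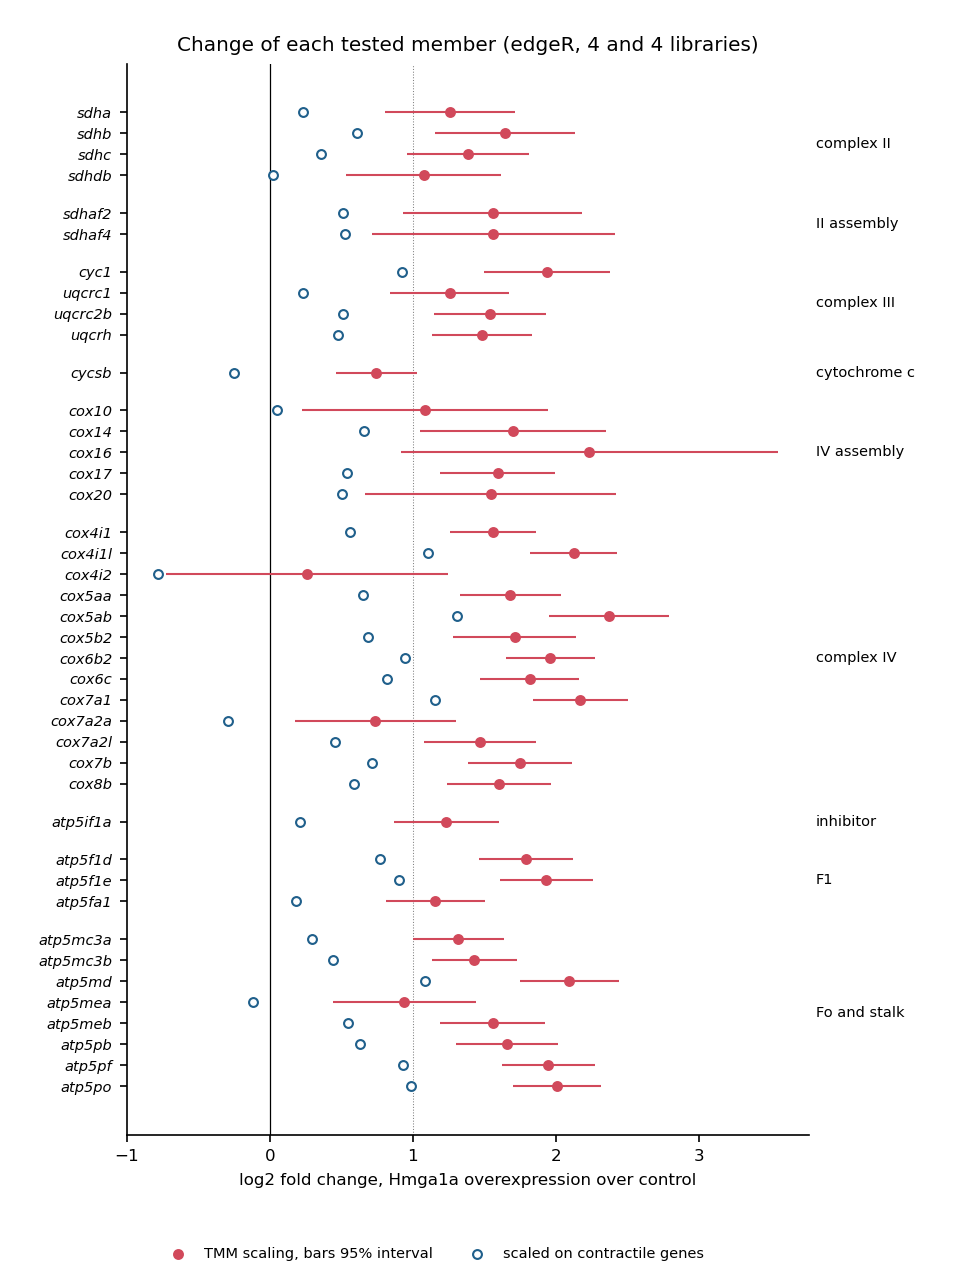
Log2 fold change of each tested member, overexpression over control, with TMM scaling (filled points, bars the 95% interval) and with scaling on contractile genes (open points; cox16 was not tested there). With TMM scaling all points lie above 0 and the interval of cox4i2 alone includes 0; the contractile scaling moves every point left and puts cycsb, cox4i2, cox7a2a and atp5mea below 0.

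The 4 measured subunits of complex II all rose. The gene of the catalytic flavoprotein, sdha, was at 93.4, 151, 118 and 129 CPM in controls and at 270.5, 320.4, 236 and 268 CPM with overexpression, a change of 1.26 ± 0.22 (adjusted p = 1.8e-05). That of the iron-sulfur subunit, sdhb, was at 73.6, 30.2, 85.7 and 73.6 CPM in controls and at 228, 234, 227 and 241 CPM with overexpression (1.65 ± 0.24, adjusted p = 9.1e-07). Groups were apart in both, and the overexpression libraries of sdhb lay closer together than its controls, of which control 2 rests on 1 count. The membrane anchors sdhc (134 ± 19.02 to 361 ± 46.7 CPM, 1.39 ± 0.21) and sdhdb (76.4 ± 10.9 to 156 ± 24.5 CPM, 1.08 ± 0.27) rose as well, with adjusted p of 1.5e-06 and 0.000894. On contractile scaling the 4 changes were 0.23, 0.61, 0.36 and 0.03 in that order, and none passed. Of the assembly factors, sdhaf2, which attaches flavin to the catalytic subunit, rose (1.56 ± 0.31, adjusted p = 7.0e-05) although its groups overlapped, at 39.6 to 151 CPM in controls and 127 to 193 CPM with overexpression. The assembly factor sdhaf4 rose too (1.56 ± 0.42, adjusted p = 0.00174), from 5, 0, 5 and 7 counts in controls, of which none reached the filter's minimum. Their changes scaled on contractile genes, 0.51 and 0.53, did not pass.

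In complex III 4 of 7 members were tested and all rose. The gene of cytochrome c1, cyc1, which carries the heme that reduces cytochrome c, had the largest change of them. It stood at 105, 60.3, 118 and 169 CPM in controls and at 565, 501, 432 and 431 CPM with overexpression (1.94 ± 0.22, adjusted p = 9.3e-09). Every overexpression library was more than 2-fold above the highest control. Of the core subunits, uqcrc2b rose from 181 ± 34.2 to 547 ± 62.5 CPM (1.54 ± 0.19) and uqcrc1 from 171 ± 37.3 to 410.4 ± 39.8 CPM (1.26 ± 0.20), with adjusted p of 6.6e-08 and 4.6e-06. The hinge protein gene uqcrh, at 241 to 368 CPM in controls and 737 to 885 CPM with overexpression, changed by 1.49 ± 0.17 (adjusted p = 1.6e-08). Of the 4, cyc1 (0.92) and uqcrc2b (0.52) passed when scaled on contractile genes, while uqcrh (0.48) and uqcrc1 (0.23) did not. The gene uqcrb, of the ubiquinone-binding region, had 1, 0, 0 and 1 counts in controls and 15, 13, 12 and 23 with overexpression and was too low to pass the filter. Its summed counts were 2 and 63, a ratio of scaled levels of 13.6 with an exact 95% counting interval of 3.61 to 115, which covers counting error only. With no filter it passed (adjusted p = 7.6e-05, edgeR), and 41 members were then higher and 0 lower, beside 6.91% of all genes called higher. The iron-sulfur subunit gene uqcrfs1 and the small subunit gene uqcr10 are listed at 0 in every library.

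Cytochrome c, the soluble carrier between complexes III and IV, had a change below the medians of the tested members of these complexes, 1.51 and 1.71, a difference that was not tested. Its gene cycsb was at 959.7, 905, 1104 and 1221 CPM in controls and at 1635, 1783, 1862 and 1879 CPM with overexpression. The groups did not overlap, with a change of 0.75 ± 0.14 (adjusted p = 3.5e-05) and a 95% interval of 0.46 to 1.03. With contractile scaling it turned to -0.25 and did not pass (adjusted p = 0.252). It was 0.19 with the libraries thinned to the smallest one, where it did not pass either (adjusted p = 0.318).

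Complex IV had 13 tested subunits of 14, of which 12 rose, with a median of 1.71. The cox4 subunit, the largest nuclear one, has 3 genes in the table. The gene cox4i1l was at 453, 634, 563 and 556 CPM in controls and at 2337, 2073, 2533 and 2369.8 CPM with overexpression, and cox4i1 at 762, 1116, 766 and 1012 CPM and 2560.2, 2397, 2652 and 2811 CPM. Both rose, cox4i1l by 2.13 ± 0.15 (adjusted p = 1.6e-12) and cox4i1 by 1.56 ± 0.15 (adjusted p = 3.8e-10), and in each the lowest overexpression library was over 2-fold above the highest control. The gene cox4i2, named after the low-oxygen form of mammals, was at 11.3, 60.3, 48.2 and 40.5 CPM in controls and at 33.2, 28.2, 79.6 and 24.8 CPM with overexpression. Overexpression library 3 was higher than every control and the other 3 lay among the controls. Its change of 0.26 ± 0.48 did not pass (adjusted p = 0.655), but its 95% interval from -0.72 to 1.25 includes a rise of 2-fold. The counts behind it are few, 4, 2, 9 and 11 in controls and 14, 17, 26 and 15 with overexpression. Over 16 alternatives its adjusted p ran from 0.15 to 0.827, and the change was -0.29 without control 1 and -0.14 without overexpression library 3.

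Among the other complex IV subunits the pair cox5aa and cox5ab both rose. The level of cox5ab was 105, 151, 118 and 84.6 CPM in controls and 524, 519.6, 591 and 539 CPM with overexpression, a change of 2.37 ± 0.21 (adjusted p = 8.1e-11), and that of cox5aa went from 255 ± 51.4 to 844 ± 70.5 CPM (1.68 ± 0.17, adjusted p = 2.0e-09). The gene cox5ab had the largest change of all 41 members, and its lowest overexpression library was over 3-fold above its highest control. The gene cox7a1, whose mammalian counterpart is the muscle form, was at 348, 573, 402 and 508 CPM in controls and at 1853, 1650.1, 2095 and 2226 CPM with overexpression (2.17 ± 0.16, adjusted p = 4.6e-12). In contrast cox7a2a, whose mammalian counterpart is expressed in many tissues, was at 67.9, 60.3, 91.1 and 125 CPM and 121, 153, 211 and 134 CPM, so that its groups overlapped. Its change of 0.74 ± 0.28 passed (adjusted p = 0.0213) but lost the call without control 1 (0.48, adjusted p = 0.191), without overexpression library 3 (adjusted p = 0.06) and with a minimum count of 30 (adjusted p = 0.298). It stood at -0.29 when scaled on contractile genes. The related cox7a2l, a factor of respiratory supercomplexes in mammals, rose from 256 ± 68.1 to 689 ± 46.1 CPM (1.47 ± 0.19), and lost the call when scaled on contractile genes (0.46). The gene cox6b2, of the subunit that faces cytochrome c, was at 382, 392, 461 and 467 CPM in controls and at 1549, 1489, 1804 and 1879 CPM with overexpression (1.96 ± 0.15, adjusted p = 6.9e-12). Its controls lay close together and far below the overexpression libraries. Of the small subunit cox8, cox8b rose from 790.1 ± 294 to 2197 ± 278 CPM (1.6 ± 0.18), while cox8a had 17 counts in all controls and 60 in all overexpression libraries and was not tested. The other 3 subunits tested, cox5b2, cox6c and cox7b, rose by 1.71 to 1.82, with no overlap of the groups.

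Of the complex IV assembly factors 5 of 9 were tested and rose, 4 of them at low counts. The fifth, the copper chaperone gene cox17, was at 167, 362, 204 and 173 CPM in controls, where control 2 was the highest, and at 593, 528, 603 and 613 CPM with overexpression (1.6 ± 0.20, adjusted p = 5.8e-08). It was the only one of the assembly factors tested that passed when scaled on contractile genes (0.54). The gene cox14 rose from 44.2 ± 12.8 to 129 ± 24.3 CPM (1.70 ± 0.32, adjusted p = 3.8e-05), and lost the call on contractile scaling (0.66, adjusted p = 0.0905). The genes cox16 (2.24 ± 0.65), cox20 (1.55 ± 0.43) and the heme A synthesis gene cox10 (1.09 ± 0.42) passed with adjusted p of 0.00332, 0.0026 and 0.0263. Each lost the call without control 1 (adjusted p = 0.052, 0.0525 and 0.0805), and cox10 also without control 3, with DESeq2 and with the 6 libraries of the authors' comparison. On contractile scaling cox20 (0.50) and cox10 (0.05) did not pass. Of these 3 genes at most 1 control each reached the filter's minimum, so all were tested through the overexpression libraries. Control counts of cox16 were 0, 0, 0 and 7, and the size of the rise is known only roughly. Below the filter's minimum, cox15, which acts after cox10 in heme A synthesis, had 4 counts in all controls and 30 with overexpression, and cox18, which inserts a mitochondrially encoded subunit, had 1 and 21. Neither passed with no filter (adjusted p = 0.128 and 0.0538). The gene cox11 had 1 count in 8 libraries, and cox19 is listed at 0.

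All 11 tested subunits of ATP synthase rose. In the catalytic F1 part, atp5f1e, the epsilon subunit, was at 362, 603, 402 and 456 CPM in controls and at 1519, 1423, 1862 and 1705 CPM with overexpression (1.93 ± 0.16, adjusted p = 2.5e-11). The delta subunit gene atp5f1d went from 406 ± 93.6 to 1336 ± 78.2 CPM (1.79 ± 0.16, adjusted p = 1.3e-10). The alpha subunit gene atp5fa1 had the smallest change of the 3, from 1141, 2504, 1398 and 1895 CPM to 3661, 3682, 3911 and 3446 CPM (1.16 ± 0.17, adjusted p = 1.1e-06). Control 2 was its highest control and still lay below every overexpression library. When scaled on contractile genes atp5fa1 stood at 0.19 and did not pass (adjusted p = 0.352), while atp5f1e (0.90) and atp5f1d (0.77) did.

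In the stalk, atp5po, the subunit that confers oligomycin sensitivity, was at 600.2, 965, 616 and 648 CPM in controls and at 2926, 2427, 2723 and 2568 CPM with overexpression. Its change of 2.01 ± 0.15 (adjusted p = 4.6e-12) stood beside that of atp5pf, the coupling factor, from 531 ± 133 to 1913 ± 80.8 CPM (1.95 ± 0.16). The small membrane subunit gene atp5md was at 229, 211, 284 and 342 CPM and 1058, 1059, 1237 and 1396 CPM (2.10 ± 0.17, adjusted p = 1.9e-11), and each overexpression library was over 3-fold above the highest control. The other stalk gene tested, atp5pb, rose by 1.66. The c-ring genes atp5mc3b (1879 ± 355 to 4927 ± 318 CPM, 1.43 ± 0.15) and atp5mc3a (383 ± 52.4 to 921 ± 48.1 CPM, 1.32 ± 0.15) rose with adjusted p of 1.5e-09 and 2.3e-08. The counts of atp5mc3b used up to 50.2% of the possible identifiers, the most of any member, so its correction for identifiers used more than once is the largest among them. The third c-ring gene, atp5mc1, had 5 counts in all controls and 11 with overexpression, a ratio of scaled levels of 0.95 with a counting interval of 0.304 to 3.49. The subunit e genes were atp5meb, from 769 ± 319 to 2018 ± 304 CPM (1.56 ± 0.18, adjusted p = 2.2e-08), and atp5mea, at 102, 241, 107 and 107 CPM in controls and 230.2, 171, 214 and 261 CPM with overexpression. For atp5mea control 2 lay among the overexpression libraries, and its change of 0.94 ± 0.24 passed (adjusted p = 0.00154), but not with a minimum count of 30 (adjusted p = 0.0694) nor when scaled on contractile genes (-0.11). The call of atp5mc3a was also lost on contractile scaling (0.30). The genes atp5pd and atp5mf are listed at 0 in every library and atp5l at 2 counts over 8 libraries.

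The inhibitor gene atp5if1a, whose product blocks ATP hydrolysis by the enzyme, rose with the subunits. It was at 215, 392, 273 and 353 CPM in controls and at 676, 671, 732 and 646 CPM with overexpression (1.24 ± 0.18, adjusted p = 9.4e-07), with no overlap. Scaled on contractile genes the change was 0.21 and did not pass, and thinned to the smallest library it was 0.40 (adjusted p = 0.203). Its paralog atp5if1b had 3 counts, all with overexpression.

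The balance within paralog families was compared as the share of each gene in the summed counts of its family in a library, which does not depend on scaling between libraries. Paralogs can share reads, and the handling of such reads is not stated, so the shares are uncertain. The 10 shares of 6 families were each tested by an exact permutation of the library labels, two-sided, with 70 possible assignments and a smallest p of 0.0286. The cox4 family was known from earlier results of these data, so the p-values of its shares are a description. In 4 shares the groups did not overlap, each with p = 0.0286 and an adjusted p of 0.0714 over the 10 shares (exact permutation test), so none passed at 0.05. A share with this smallest p can pass only if most of the 10 shares have it too. Of the 4, cox4i1 and cox4i1l nearly mirror each other, since cox4i2 holds few of the cox4 counts. The share of cox4i1l was 37, 34.96, 40.9 and 34.5% of the cox4 counts in controls and 47.4, 46.1, 48.1 and 45.5% with overexpression, a mean of 36.8% ± 2.89 in controls and 46.8% ± 1.18 with overexpression (SD, n = 4). It was higher in 4 of 4 overexpression libraries than in every control, and that of cox4i1 was lower in 4 of 4, with 60.6% ± 3.34 in controls and 52.4% ± 1.59 with overexpression. The share of cox7a1 among cox7a1, cox7a2a and cox7a2l was 60.4, 63.4, 51.8 and 53.5% in controls and 71.1, 64.8, 70.04 and 72.9% with overexpression. Its overexpression libraries were again all above the controls, overexpression library 2 by the least. The share of atp5meb among the subunit e genes was 84.8% ± 1.39 in controls and 90.2% ± 0.916 with overexpression, also without overlap.

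**Figure D4:**
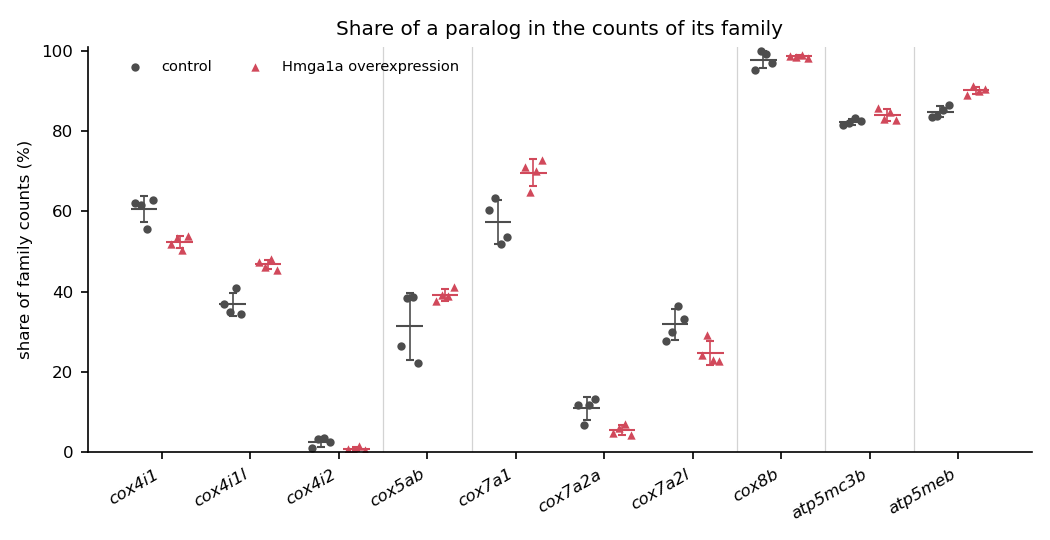
Share of each of 10 paralogs in the counts of its family, in percent, by library (circles: control; triangles: Hmga1a overexpression; bars: mean and SD, n = 4; grey lines part the 6 families). The groups are apart for cox4i1, cox4i1l, cox7a1 and atp5meb and overlap for the other 6 shares.

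The other 6 shares overlapped between the groups. The share of cox4i2 was 0.925, 3.32, 3.49 and 2.52% in controls and 0.674, 0.628, 1.52 and 0.477% with overexpression (p = 0.0571, exact permutation test; adjusted p = 0.0816). Control 1 fell within the range of the overexpression libraries, and the other 3 controls lay above it. The shares of cox7a2a (10.9% ± 2.89 in controls and 5.52% ± 1.23 with overexpression) and cox7a2l (31.8% ± 3.76 in controls and 24.8% ± 3.01 with overexpression) had the same exact p of 0.0571 and adjusted p of 0.0816. The share of cox5ab against cox5aa was 26.5, 38.5, 38.6 and 22.2% in controls, 2 low and 2 high, and 37.6, 39.2, 38.9 and 41.1% with overexpression (p = 0.143, exact permutation test; adjusted p = 0.159). Control 2 holds only 13.01 counts of that pair. For atp5mc3b (82.4% ± 0.706 in controls and 84.1% ± 1.47 with overexpression, adjusted p = 0.143) and cox8b (97.9% ± 2.13 in controls and 98.6% ± 0.315 with overexpression, adjusted p = 0.543) the exact permutation tests did not pass either. These p do not show that the shares were alike.

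The authors' deposited table compares 3 libraries of each group over 7998 genes, and 46 members appear in it. The table gives 43 of them as higher and 0 as lower at an FDR under 0.05, where 14.2% of all its genes are higher. The smallest p-value of the authors' deposited table belongs to atp5po (log2 fold change 2.36), and cox4i1l (2.46) has the third smallest. In the same 6 libraries the fit used here gave smaller changes, 2.09 for atp5po and 2.20 for cox4i1l. The reason for the difference was not tested. The 3 members that do not pass in the authors' deposited table are cox4i2 (0.72, FDR 0.441), cox8a (0.91, FDR 0.214) and atp5mc1 (1.12, FDR 0.637). Among gene ontology terms of the genes it marks as up, the authors' deposited table lists cytochrome c oxidase activity with 11 genes (9.25-fold enriched, Benjamini-adjusted p = 1.8e-05), ATP synthesis coupled proton transport with 10 (9.17-fold, 7.5e-05) and respiratory chain complex II with 4 (15.4-fold, 0.0304). Electron transport from succinate to ubiquinone (5 genes, Benjamini-adjusted p = 0.00906) and the ATP synthase coupling factor Fo (6 genes, 0.00908) pass there too. Some terms of complexes II, III and V in the authors' deposited table do not pass at 0.05. Among them are succinate dehydrogenase activity with 2 genes (Benjamini-adjusted p = 0.856), complex III with 3 (0.339), transport from ubiquinol to cytochrome c with 4 (0.264) and the catalytic core F1 with 4 (0.0562). The table shares all 6 of its libraries with the comparison above and is no separate evidence.

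The rest of the pathway was split by genome. Of 41 nduf entries, gathered by name alone and named after complex I and its assembly factors, 22 were tested and all 22 were higher. Their median was 1.63 (0.56 when scaled on contractile genes), and 12 of the 41 are listed at 0. Of the 22, ndufa10, ndufaf1, ndufaf2, ndufaf3, ndufb11 and ndufv2 met the filter only with overexpression libraries counted in. The mitochondrially encoded partners of the members moved the other way. All 6 were lower, with a median of -0.96 (-0.49 with library totals alone and -1.89 on contractile genes). In complex III, mt.cyb, the cytochrome b gene, was at 24454, 31135, 35433 and 40587 CPM in controls and 15786, 16183, 16409 and 18506 CPM with overexpression (-0.98 ± 0.17), beside 1.94 for cyc1. In complex IV, mt.co1 (-0.98 ± 0.18), mt.co2 (-0.91 ± 0.19) and COX3 (-0.86 ± 0.17) fell, and so did mt.atp6 (-0.94 ± 0.19) and mt.atp8 (-1.0 ± 0.18) of ATP synthase. The adjusted p of these 6 was at most 0.000167 (edgeR). All but mt.atp8 used over 90% of the possible identifiers in some library, close to the ceiling of what can be counted. Their counts are therefore imprecise, and the shares of the mitochondrial genome given above rest in part on them. The counts of mt.atp8 used at most 22.2%, and it stood at 2194, 1659, 2679 and 3536 CPM in controls and at 1203, 1212, 1069 and 1696 CPM with overexpression. Its groups overlapped in overexpression library 4, which lay just above control 2, the lowest control.

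Assembly factors that the naming rule does not reach were looked at as well. Of 12 tested, 11 were higher and 0 lower, with a median of 1.70. All 11 met the filter only with overexpression libraries counted in. Their calls were thus favoured by the filter, and the count is a description. The smallest p among them had dmac2l (2.86 ± 0.59, control counts 2, 0, 1 and 2), uqcc2 (1.90 ± 0.38) and ttc19 (2.11 ± 0.45), both of which act on complex III in mammals, and coa1 (2.24 ± 0.54), which acts on complex IV. No control of dmac2l, ttc19 and coa1 reached the filter's minimum, and only 2 controls of uqcc2 did. The groups of uqcc2 overlapped, with control 2 at 121 CPM on 4 counts, above overexpression libraries 2 and 3 at 106 and 91.9 CPM. Their adjusted p was at most 0.000582, and those of them tested on contractile scaling did not pass there. The one that did not pass, higd1a, met the filter on its controls alone and had a change of -0.22 ± 0.14 (adjusted p = 0.186).

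Of 29 listed regulators known to act on these genes 12 were tested, with 4 higher, 3 lower and 5 not passing. These shares are near those of all genes tested, 30.4% higher and 29.2% lower, and so are no result about regulators. They had a median of -0.18. The orphan nuclear receptor gene esrra, which activates respiratory genes in mammals, was at 53.8, 60.3, 26.8 and 51.5 CPM in controls and 104, 105, 119 and 155 CPM with overexpression (1.37 ± 0.31, adjusted p = 0.000417). Its groups did not overlap, but with 3 controls at the minimum it met the filter only with overexpression libraries counted in. The related esrrga (1.21 ± 0.47, adjusted p = 0.0275), pparab (1.40 ± 0.49, adjusted p = 0.0133) and the mitochondrial transcription factor gene tfb2m (1.58 ± 0.45, adjusted p = 0.00327) passed at low counts, with at most 1 control each at the filter's minimum. The groups of esrrga overlapped, at 14.2, 90.5, 16.1 and 22.1 CPM in controls and 59.3, 68.1, 30.6 and 34.7 CPM with overexpression, and the highest of the 8 values is control 2, on 3 counts. Scaled on contractile genes, esrra (0.33), esrrga (0.17) and tfb2m (0.55) did not pass, and pparab was not tested. The coactivator gene ppargc1b fell from 167, 181, 139 and 250.2 CPM to 99.7, 69.7, 94.9 and 79.3 CPM (-1.13 ± 0.25, adjusted p = 0.000336), with every overexpression library below every control. The low-oxygen factor genes epas1b (-2.23 ± 0.26, adjusted p = 2.1e-08) and hif1ab (-0.63 ± 0.21, adjusted p = 0.0123) fell too. The fall of hif1ab lost its call with library totals alone (-0.26, adjusted p = 0.363, edgeR). The gene epas1b is also an endothelial gene, and tested endothelial markers fell in the same libraries. A link between these falls was not tested. The genes hif1al (-0.65 ± 0.42), mef2aa (-0.06 ± 0.23), mef2d (-0.30 ± 0.31), yy1a (-0.59 ± 0.42) and yy1b (0.94 ± 0.43) did not pass (adjusted p from 0.0577 to 0.84), and gabpa, tfam and ppargc1a were too low to test.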

How the data were processed

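The authors deposited estimated counts per gene, numbers of unique molecular identifiers corrected for repeated use; undoing the correction for 4096 identifiers gave whole numbers in 100% of 61959 non-zero values (tolerance 0.01). The submitters' processing notes name danRer11 and edgeR; the aligner, the counter, the annotation and strand use were not given in the sources read here. The authors' deposited comparison holds, per the file headers, log2 fold changes, p-values and FDR; its count columns equal controls 1, 3 and 4 and overexpression libraries 2, 3 and 4 (tolerance 1e-06). The authors' deposited gene ontology table gives numbers of genes (neither a score nor a read count), fold enrichment and adjusted p-values, per the file headers.

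Counts were rounded, 67 spike-in entries left out, and 2501 genes kept by filterByExpr (minimum count 10). Groups were compared with edgeR 4.0.16 in R 4.3.3 (TMM, robust quasi-likelihood test, no covariate), with Benjamini-Hochberg adjustment and a threshold of 0.05. The fit was tried on simulated counts without a broad shift in makeup between the groups, so that case was not covered. Intervals use the SE and the test's degrees of freedom. DESeq2 1.42.0, other scalings, filters, thinning and left-out libraries were tried. Members, lists and tests were chosen with earlier results of these data known. Named members are the 4 with the smallest p per role, all of compared paralog families, those not passing and the extremes; the others were named after their values were seen. One role pattern was changed after the symbols, not the values, were seen, to put atp5fa1 in F1. No sequences or positions were analysed here.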

Additional observations from a re-analysis of the deposited data

Results flagged for a closer look

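Of 102 sets of 4 values screened (41 members and 10 shares in both groups), 8 had a library far from the other 3 by Dixon's test at 95%; chance alone flags about 1 in 20. In 2 of them control 2, the shallowest library, was high: atp5mea at 241 CPM against 102 to 107 CPM, and atp5po at 965 CPM against 600.2 to 648 CPM. In control 4, uqcrh was at 368 CPM against 241 to 260.5 CPM, and cox16 at 25.8 CPM while the other controls were at 0. In control 1, atp5pb was low, at 193 CPM against 268 to 272 CPM. In control 3 the share of cox4i1 in the cox4 counts was 55.6% against 61.7% to 62.97%. Overexpression library 3 was high for cox4i2, at 79.6 CPM against 24.8 to 33.2 CPM, and for uqcrc2b, at 640.1 CPM against 506 to 524 CPM.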

How the results depend on the processing

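Of 722 recomputed changes of single members, 687 kept direction and side of the threshold, 29 lost their call and 6 turned sign, and none of these 6 passed. Scaled on contractile genes, 130 genes were higher and 1510 lower, with 21 members higher: complex II 0, its assembly factors 0, complex III 2, cytochrome c 0, complex IV assembly factors 1 and the inhibitor 0. The changes that turned there were atp5mea (-0.11), cox4i2 (-0.78), cox7a2a (-0.29) and cycsb (-0.25). With a minimum count of 30, 328 of 1002 genes tested were higher and 368 lower, with 1 complex II assembly factor and 2 of complex IV. Thinned to the smallest library, 492 genes could be tested, 128 higher and 154 lower; 27 of 31 members passed, with 2 of complex II and 0 of its assembly factors, of cytochrome c, of complex IV assembly factors and of the inhibitor. With library totals alone 479 genes were lower. Without single libraries 37 to 41 of 41 to 43 tested members and 629 to 861 of 2670 to 2828 tested genes were higher. There 671 to 852 genes were lower, and complex IV assembly factors ranged from 2, without control 1, to 5. The change of cox4i2 ranged from -0.29 to 0.51, and the share of cox8b moved by -0.0851 to 1.5 points, turning without control 1. With whole identifiers, which compress high counts by construction, the share of atp5mc3b moved by -0.95 points.

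Same-numbered libraries did not deviate together (correlations from -0.04 to 0.02 over 4 pairs). These correlations include counting noise and cannot exclude a pairing. With the number as a replicate block 696 genes were higher, 652 lower and 40 members higher. Members under 10 counts in controls, and shares in control 2, are limited by depth.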
